A study of Rattus norvegicus with 14 samples.

Results

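Genes of the skeletal muscle sarcomere, of its calcium and energy supply and of muscle determination were followed in newborn rat foreskin after prenatal exposure to flutamide, an antiandrogen that blocks the androgen receptor. The genes were 32 by name, and 30 of them had a probe set annotated with that symbol alone, out of 14497 genes measured. Myom2 and Tcap were not analysed here. Pregnant Sprague Dawley dams received, by oral gavage on each of gestational days 16 to 20, either corn oil alone (the vehicle, 7 litters) or flutamide at 5 mg/kg/day (7 litters), and foreskin was taken from the pups on postnatal day 5. RNA from 2 foreskins of a litter was pooled for 1 Affymetrix Gene 1.0 ST array, so the litter is the replicate and variation among pups within a litter cannot be seen. Values are log2 array values, in which a step of 1 is a doubling, and a difference is always flutamide minus corn oil.

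The sarcomere is the contractile unit of striated muscle, in which thick filaments of myosin slide along thin filaments of actin. Calcium released from the sarcoplasmic reticulum binds troponin C on the thin filament and allows myosin to bind actin. Most sarcomere proteins come in fibre-type forms: embryonic forms appear first and are replaced around and after birth by slow or fast forms. In skin, striated muscle lies in a thin sheet beneath the dermis, and pelvic striated muscles lie near the penis, so a dissected foreskin can hold some striated muscle beside the smooth muscle of its vessels and dartos.

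None of the 30 muscle genes passed the comparison of flutamide with corn oil litters at an adjusted p under 0.05, where 1 of all genes tested (0.00690%) did. Their limma p-values, Benjamini-Hochberg adjusted over all genes, ran from 0.348 to 0.989. At an unadjusted p under 0.05 there were 5 of the 30, against 9.16% of all genes. Of these, Myh2, Ldb3 and Myh1 had higher values after flutamide (5.70% of all genes) and Ckm and Tnnt2 had lower values (3.46% of all genes). This count was 3 without corn oil replicate 4, where 7.67% of all genes had such a p. It was 10 without corn oil replicate 7 (9.39% of all genes) and 9 without flutamide replicate 5 (8.45%). In 19 of the 30 the flutamide mean lay below the corn oil mean, against 47.7% of all genes, and the median difference was -0.050 against 0.005 over all genes. None of the 30 had groups that did not overlap (0.124% of all genes). The 95% interval of the difference excluded a 1.5-fold change in either direction for 28 of the 30 and a 2-fold change for all 30 that were measured, the exceptions at 1.5-fold being Tnnc2 and Ttn. These intervals hold for array values. Of the 30 genes, 25 had a mean under 6, and RMA shrinks differences of dim probe sets, so the intervals do not bound the change of RNA for such genes. In a bulk sample, fewer muscle cells and less RNA per muscle cell cannot be told apart.

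Differences between litters of the same group were wide for part of the set. The SD between litters of a group lay above the 90th percentile of all genes, which 10% of genes exceed by construction, for 11 of the 30: Ttn, Tnnc2, Myh3, Mybpc2, Myl1, Tnni2, Tnnc1, Myod1, Tnnt3, Acta1 and Trdn. That share is not matched for level, and dim genes spread more. The median litter SD of all genes was 0.119 at a mean of 6 or more and 0.158 below 6, beside 0.201 and 0.181 for the muscle genes. Below a mean of 5 it was 0.178 for all genes and 0.174 for the muscle genes. Ttn, which encodes the giant elastic protein titin that spans from Z-disc to M-line, had a litter SD of 0.41, at the 99.5th percentile of all genes. Its corn oil litters ran from 4.97 to 6.22 with a median of 5.55, and its flutamide litters from 4.83 to 6.01 with a median of 5.33. The groups overlapped over most of that range, and the highest and lowest of the 14 litters, corn oil replicate 4 and flutamide replicate 6, were 2.63-fold apart. Tnnc2, fast troponin C, spanned 2.19-fold between the same 2 litters, and Myh3, embryonic myosin heavy chain, 2.11-fold between flutamide replicates 5 and 6. At the other end, Atp2a1, the fast calcium pump SERCA1 of the sarcoplasmic reticulum, had a litter SD of 0.07 and Ryr1, its calcium release channel, of 0.08, at percentiles 3.25 and 8.01.

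**Figure D1:**
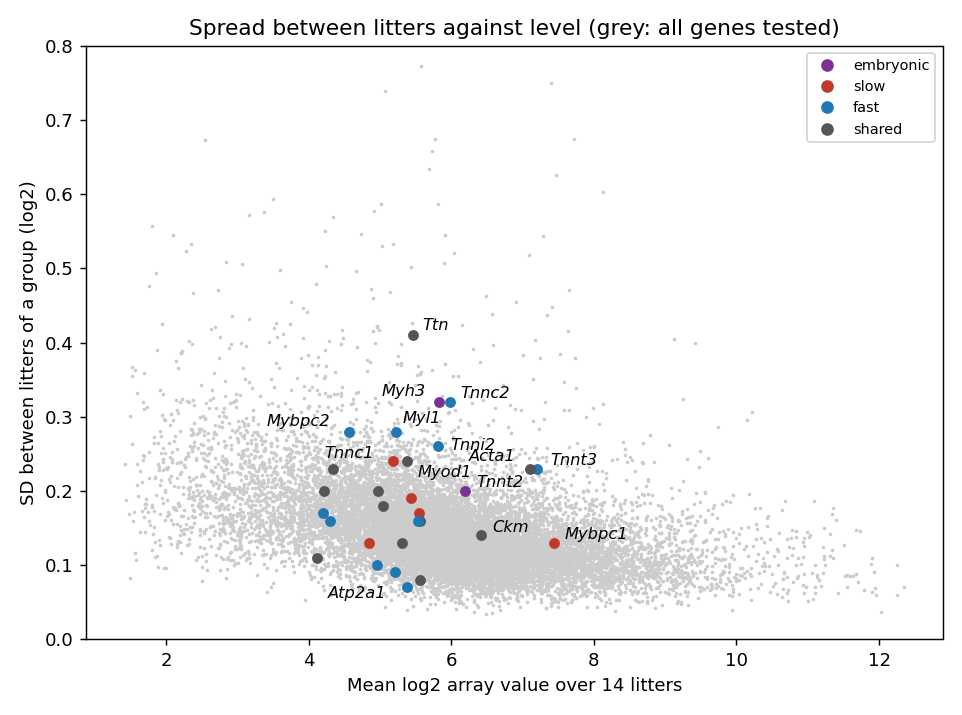
Each point is a gene, placed by its mean log2 array value over the 14 litters (horizontal axis) and by the SD between litters of a group (vertical axis, log2); grey points are all genes tested and coloured points the 30 muscle genes by fibre class. Ttn (0.41), Tnnc2 and Myh3 (0.32 each) stand above most of the cloud at their level and Atp2a1 (0.07) near its lower edge; 4 genes with an SD above 0.8 are outside the plotted range.

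The same few litters were extreme for many sarcomere genes. Corn oil replicate 4 was the highest of the 14 litters for 8 of the 30 genes (Actn3, Tnnt1, Tnnt3, Tnni2, Tnnc2, Myl1, Ttn and Myom1), while it was highest for 8.98% of all genes. Flutamide replicate 6 was the lowest for 10 of the 30 (Acta1, Myh3, Actn3, Ckm, Tnnt2, Tnnc1, Tnnc2, Myl1, Ttn and Myom1), against 7.58% of all genes. Corn oil replicate 1 was the lowest for 7 others (Myh2, Actn2, Tnni1, Mb, Atp2a1, Myog and Mybpc2), against 10.4% of all genes. Its array had the widest spread of values of the 14 (SD 1.76), and these 7 genes had means over the litters from 4.30 to 5.55. The part of array spread in their low values was not tested. Flutamide replicate 5 was among the 3 highest litters for 14 of the 30, against 17.3% of all genes, and corn oil replicate 7 for none, against 20.1%. High and low litters therefore occurred in both groups. Several genes did not follow this order: Trdn, which encodes the triad protein triadin, was lowest in flutamide replicate 5, and Myod1, the myogenic determination factor, was lowest in corn oil replicate 4. Mybpc1, slow myosin-binding protein C, was highest in flutamide replicate 6. Averaged over the 11 genes above, which were picked for their spread, each centred on its own mean, corn oil replicates 4 and 3 stood at 0.27 and 0.26, flutamide replicate 5 at 0.20, corn oil replicate 7 at -0.25 and flutamide replicate 6 at -0.31. Averaged over all 30 genes, without that choice, the same litters stood at 0.12, 0.09, 0.11, -0.12 and -0.17 in this order. The smooth muscle list, centred the same way, stood at 0.14 and 0.18 in corn oil replicates 4 and 3, at -0.20 in flutamide replicate 5, at 0.09 in corn oil replicate 7 and at 0.04 in flutamide replicate 6. The part of other cells in the litter pattern was not tested.

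**Figure D2:**
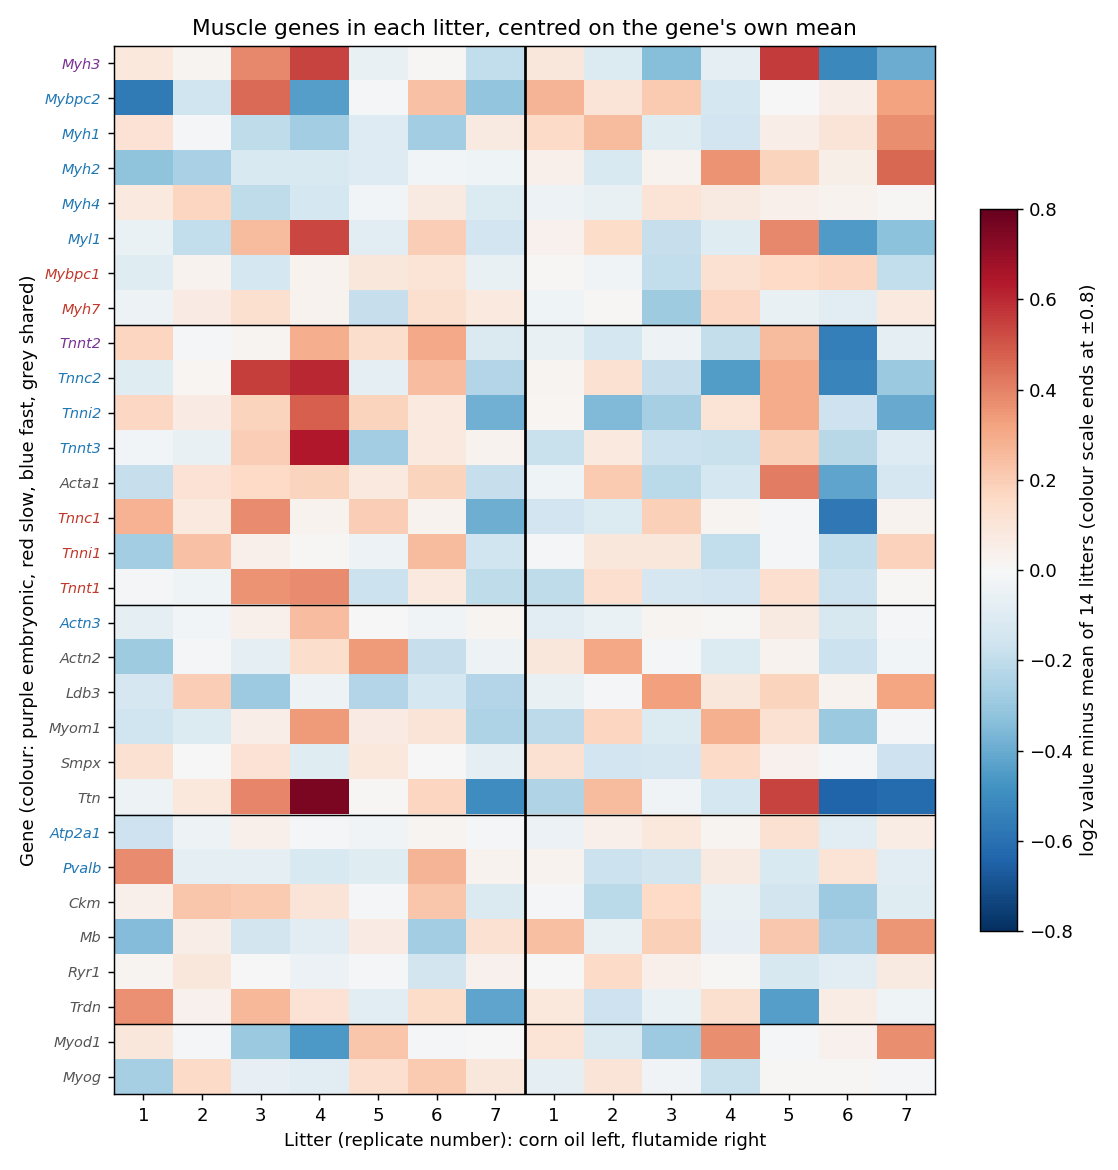
Rows are the 30 muscle genes, grouped from top to bottom as thick filament, thin filament, Z-disc and M-line, calcium handling and energy, and myogenic factors; columns are litters by replicate number, and colour is the log2 array value minus the gene's mean over 14 litters. Corn oil replicates 3 and 4 and flutamide replicate 5 are red, and flutamide replicate 6 is blue, for Myh3, Myl1, Tnnc2 and Acta1; Ttn reads likewise, and Atp2a1 and Ryr1 stay pale throughout.

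The relation between litters was measured for 6 gene pairs, on values centred within each group. Myh3 and Acta1, skeletal alpha-actin, went together across the 14 litters with a Pearson r of 0.77 (permutation p = 0.00135, adjusted over the 6 pairs 0.0081) and a Spearman rho of 0.65 (permutation p = 0.0143, adjusted 0.086). Without the 2 litters farthest out in Myh3, flutamide replicate 5 and corn oil replicate 4, r was 0.61. It was 0.55 within the corn oil litters and 0.87 within the flutamide litters, and 0.78 with each array centred on its median. Acta1 and Atp2a1 had an r of 0.65 (permutation p = 0.0123, adjusted 0.037) and a rho of 0.59 (permutation p = 0.0306, adjusted 0.0917), and r was 0.39 without the 2 litters farthest out in Acta1, flutamide replicates 5 and 6. It was 0.70 within the corn oil litters, which hold neither of these, and 0.65 within the flutamide litters. Corn oil replicate 1, however, was far below the other corn oil litters in Atp2a1 (5.21) and at their low end in Acta1 (6.93). The r without that litter was not measured. The slow and fast troponin I genes Tnni1 and Tnni2 had an r of -0.16 (permutation p = 0.598) and a rho of -0.31 (permutation p = 0.288). Acta1 with Ckm gave 0.19 (permutation p = 0.528; rho 0.24, permutation p = 0.41), Myh7 with Acta1 0.16 (permutation p = 0.585; rho 0.20, permutation p = 0.483) and Myog with Myh3 -0.29 (permutation p = 0.317; rho -0.41, permutation p = 0.145). The adjusted permutation p of r was 0.598 for these 4 pairs, and that of rho lay between 0.291 and 0.483. For Acta1 with Ckm, r was 0.76 within corn oil and -0.11 within flutamide litters, a difference that was not tested. Every value in a pair comes from the same arrays, which share their normalisation.

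**Figure D3:**
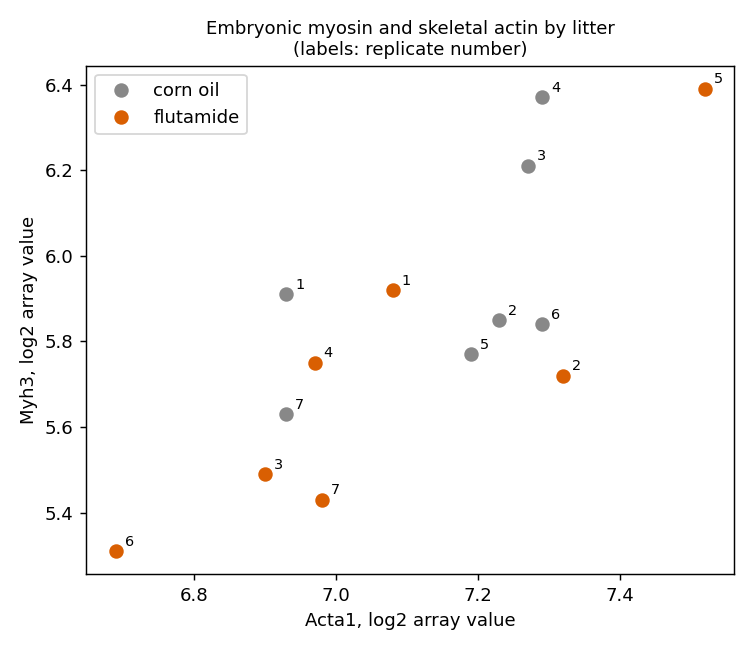
Each point is a litter, placed by its log2 array values of Acta1 (horizontal) and Myh3 (vertical), with its replicate number; grey is corn oil and orange flutamide. The points rise from flutamide replicate 6 (6.69 and 5.31) to flutamide replicate 5 (7.52 and 6.39), with both groups mixed along the way.

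Promoter sequences are given for the genes with the widest litter spread (Ttn, Tnnc2 and Myh3), for Acta1, which was set against Myh3 above, and for Myh2, the muscle gene with the smallest p between groups. RefSeq windows on the GRCr8 assembly, from 250 bases before to 50 after the annotated start, were at hand for 27 of the 30 genes, in 29 windows because Myl1 and Tnnt2 have 2 starts each. Ttn lies at chr3:82332061-82332360 (minus strand), Tnnc2 at chr3:173935290-173935589 (minus strand), Myh3 at chr10:52268935-52269234 (plus strand), Acta1 at chr19:68784145-68784444 (minus strand) and Myh2 at chr10:52355489-52355788 (plus strand). Each is printed 5′ to 3′ on the gene's strand, and capitals mark the E-box CANNTG, the site type bound by Myod1 and Myog proteins.
Ttn: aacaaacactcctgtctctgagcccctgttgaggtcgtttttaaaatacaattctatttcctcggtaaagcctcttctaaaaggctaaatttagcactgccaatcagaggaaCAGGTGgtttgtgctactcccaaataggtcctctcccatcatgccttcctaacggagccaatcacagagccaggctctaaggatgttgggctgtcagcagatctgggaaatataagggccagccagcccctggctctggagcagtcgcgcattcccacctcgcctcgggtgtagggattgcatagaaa
Tnnc2: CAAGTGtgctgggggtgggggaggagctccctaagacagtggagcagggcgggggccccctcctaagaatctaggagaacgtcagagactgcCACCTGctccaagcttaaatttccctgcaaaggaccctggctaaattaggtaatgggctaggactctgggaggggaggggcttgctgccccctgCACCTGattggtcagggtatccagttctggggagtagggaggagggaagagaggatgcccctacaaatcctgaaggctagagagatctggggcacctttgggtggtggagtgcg
Myh3: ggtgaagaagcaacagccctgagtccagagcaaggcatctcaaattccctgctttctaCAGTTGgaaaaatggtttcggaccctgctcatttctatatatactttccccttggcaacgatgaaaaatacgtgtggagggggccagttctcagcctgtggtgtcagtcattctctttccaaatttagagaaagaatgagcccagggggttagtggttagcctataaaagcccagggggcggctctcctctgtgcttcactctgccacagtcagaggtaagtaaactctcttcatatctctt
Acta1: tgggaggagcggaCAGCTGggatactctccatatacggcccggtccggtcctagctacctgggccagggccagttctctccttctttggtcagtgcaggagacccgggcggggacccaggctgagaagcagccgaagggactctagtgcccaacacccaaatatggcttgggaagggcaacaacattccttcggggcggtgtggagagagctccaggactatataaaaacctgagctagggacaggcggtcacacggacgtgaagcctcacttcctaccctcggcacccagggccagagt
Myh2: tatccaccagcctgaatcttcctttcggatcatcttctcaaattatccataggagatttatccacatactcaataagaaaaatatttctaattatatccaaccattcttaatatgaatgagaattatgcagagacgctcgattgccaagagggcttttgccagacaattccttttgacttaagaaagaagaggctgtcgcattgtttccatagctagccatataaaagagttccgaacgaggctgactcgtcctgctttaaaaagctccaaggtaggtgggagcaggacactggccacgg
The E-box CANNTG, which reads the same on both strands, occurred in 25 of the 29 windows, a share of 86.2%, and in 72.1% of all 33469 windows of that length. Tnnc2 held 3, Ttn, Myh3 and Acta1 held 1 each and Myh2 held 0. Its form CAGCTG, counted within CANNTG too, was in 7 of 29 windows (24.1%) against 15.1% of all, with Acta1 among them. TATAAA, searched on both strands, was in 10 of 29 (34.5%) against 14.2% of all, including Myh3 and Myh2 at 30 bases before the start and Acta1 at 29. The MEF2 motif was in 3 windows (10.3%), those of Myl1, Smpx and Ttn, against 0.565% of all, and the CArG box of serum response factor in 3, those of Acta1, Ldb3 and Myh4, against 1.64%. A match is only a run of letters in the window, and the arrays say nothing about binding.

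Among the thick filament genes, the myosin heavy chains, which are the motor proteins that set fibre speed, differed in the sign of their group difference. Myh2, a fast heavy chain, ran from 3.98 to 4.28 with a median of 4.18 in corn oil and from 4.18 to 4.76 with a median of 4.35 in flutamide litters. In 6 of the 7 flutamide litters it was above every corn oil litter, flutamide replicate 2 being the exception. Its difference was 0.28 (SE 0.08; 1.22-fold), with a limma p of 0.00292 and an adjusted p of 0.348. Leaving out corn oil replicate 1 and also flutamide replicate 7, which had the widest and the narrowest spread of values over the array, gave 0.20, and adding the SD of each array to the model gave 0.22. Myh1, another fast heavy chain, was 4.12 ± 0.16 in corn oil and 4.31 ± 0.18 in flutamide litters (SD, n = 7 each), or 0.20 higher (SE 0.09), and the limma adjusted p was 0.510. Myh4, the fastest of the heavy chains, had 4.94 ± 0.13 and 4.98 ± 0.06 (SD, n = 7 each), 0.04 apart (SE 0.06), and a limma adjusted p of 0.874. The difference was 0.01 without corn oil replicate 3, 0.02 without corn oil replicate 4 and 0.07 without corn oil replicate 2. These 3 fast genes are neighbouring, very similar copies, so their probe sets may share signal.

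The embryonic and slow heavy chains had lower means after flutamide. Myh3 ran from 5.63 to 6.37 with a median of 5.85 in corn oil and from 5.31 to 6.39 with a median of 5.72 in flutamide litters, so that the flutamide group held the highest and the 3 lowest litters. The difference was -0.22 (SE 0.14; 0.858-fold), with a 95% interval from -0.52 to 0.08 and a limma adjusted p of 0.671. It was -0.33 without flutamide replicate 5 and -0.15 without corn oil replicate 4 or flutamide replicate 6. Myh7, the slow and cardiac beta heavy chain, had 4.88 ± 0.11 and 4.82 ± 0.14 (SD, n = 7 each), which is a difference of -0.06 with an SE of 0.07 (limma adjusted p = 0.843), and -0.01 without flutamide replicate 3. Mybpc2, fast myosin-binding protein C, ran from 4.0 to 5.02 in corn oil and from 4.43 to 4.89 in flutamide litters, and its difference of 0.23 (SE 0.13) had a limma adjusted p of 0.610. It was 0.13 with the SD of each array in the model and 0.12 when corn oil replicate 1 and also flutamide replicate 7 were left out. Mybpc1, its slow counterpart, had the same mean of 7.44 in both groups (SD 0.09 and 0.16). Myl1, the fast essential light chain, had 5.30 ± 0.27 and 5.15 ± 0.29 (SD, n = 7 each).

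**Figure D4:**
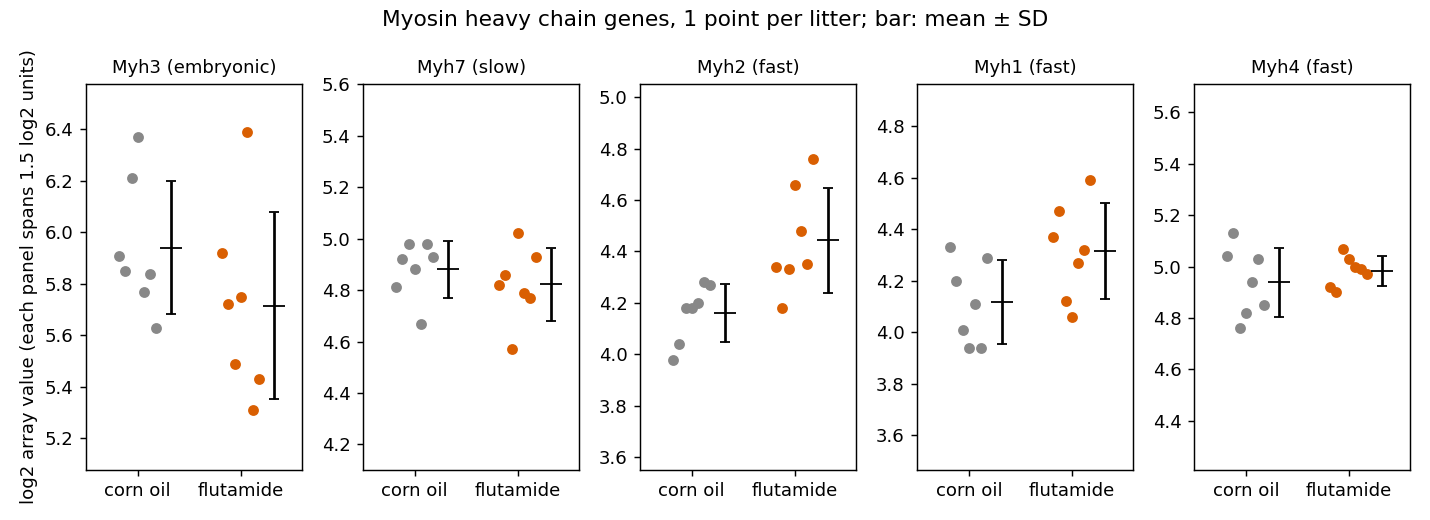
Log2 array values of the 5 myosin heavy chain genes, 1 point per litter, in panels that each span the same height; the bar beside each group is its mean ± SD (n = 7). Myh3 has the widest spread in both groups, and in Myh2 the flutamide points (4.18 to 4.76) lie mostly above the corn oil points (3.98 to 4.28).

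Myh1 and Myh2 were dim probe sets, with means over the 14 litters of 4.21 and 4.30. The 1450 genes with means from 4.04 to 4.80 had a median difference of 0.034, and 37.4% of them lay below 0. The median was 0.003 for genes from 5.89 to 6.22 and -0.020 for genes from 7.10 to 7.86. Brightness depends on the probes as well as on the RNA, so these values do not rank the heavy chains by amount, and no gene was called present or absent. Below a mean of 5, 5 of 9 muscle genes had a difference above 0, as had 2196 of 3454 genes in all. At a mean of 6 or more, 4 of 5 muscle genes (Acta1, Ckm, Tnnt2 and Tnnt3) lay below 0 and Mybpc1 lay at 0.01, beside 3751 of 6759 genes in all below 0. The part of probe brightness in the signs was not tested.

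All 8 thin filament genes measured had lower means after flutamide, against 47.7% of all genes, and none passed. The median of their differences was -0.170. Flutamide replicate 6 was the lowest litter for Acta1, Tnnt2, Tnnc1 and Tnnc2. Corn oil replicate 4 was the highest for Tnnt1, Tnnt3, Tnni2 and Tnnc2. The 8 signs are therefore not independent of each other. Tnnt2, the cardiac form of troponin T that is also made in developing skeletal muscle, ran from 6.08 to 6.50 with a median of 6.34 in corn oil and from 5.65 to 6.45 with a median of 6.12 in flutamide litters. Only 1 flutamide litter, replicate 5, lay above the corn oil median. The difference was -0.23 (SE 0.10; 0.854-fold), with a limma p of 0.0287 and an adjusted p of 0.494, and it was -0.29 without flutamide replicate 5 and -0.16 without flutamide replicate 6.

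Fast troponins had differences of a like size. Tnnc2 ran from 5.74 to 6.58 with a median of 5.99 in corn oil and from 5.45 to 6.27 with a median of 5.79 in flutamide litters, with 3 flutamide litters below all corn oil litters and the others within their range. Its difference was -0.29 (SE 0.14; 0.818-fold; limma adjusted p = 0.559), and without corn oil replicate 4 it was -0.21. Tnni2, the inhibitory troponin I of fast fibres, had 5.92 ± 0.25 and 5.70 ± 0.26 (SD, n = 7 each), which is a difference of -0.22 with an SE of 0.12 (limma adjusted p = 0.601). Tnnt3, fast troponin T, had 7.29 ± 0.28 and 7.13 ± 0.16. Its top corn oil value, 7.85 in replicate 4, stood apart from a corn oil median of 7.24.

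The slow troponins Tnnt1, Tnni1 and Tnnc1 and the skeletal actin gene overlapped widely between groups. Tnnc1, the calcium-binding troponin C of slow and cardiac muscle, had 5.27 ± 0.25 in corn oil and 5.09 ± 0.24 in flutamide litters (SD, n = 7 each). Tnnt1 had 5.49 ± 0.23 and 5.38 ± 0.15, and Tnni1 had 5.56 ± 0.19 and 5.54 ± 0.14 (SD, n = 7 each). Acta1 ran from 6.93 to 7.29 in corn oil and from 6.69 to 7.52 in flutamide litters, with 2 flutamide litters above and 2 below all corn oil litters. Its means were 7.16 ± 0.16 and 7.06 ± 0.28 (SD, n = 7 each).

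Of the genes of the Z-disc, which anchors the thin filaments, and of the M-line, which links the thick ones, Ldb3 had the smallest p. Ldb3, also called ZASP or Cypher, ran from 5.28 to 5.77 with a median of 5.43 in corn oil and from 5.51 to 5.90 with a median of 5.66 in flutamide litters. All 7 flutamide litters lay above the corn oil median, and 5 corn oil litters lay below all flutamide litters. The difference was 0.24 (SE 0.08; 1.18-fold), with a limma p of 0.00705 and an adjusted p of 0.363. Ttn, whose litters are given above, had a difference of -0.25 (SE 0.18), with a 95% interval from -0.63 to 0.13 and a limma adjusted p of 0.714. It was -0.15 without corn oil replicate 4, -0.16 without flutamide replicate 6 and -0.36 without corn oil replicate 7 or flutamide replicate 5. Actn3, the fast alpha-actinin, had 5.24 ± 0.11 and 5.18 ± 0.07 (SD, n = 7 each), and its difference of -0.05 (SE 0.06) had a limma adjusted p of 0.821. The difference was -0.02 without corn oil replicate 4. Actn2, the alpha-actinin of all fibres, had means of 5.03 and 5.06, the M-line gene Myom1 4.22 and 4.21, and the small muscle protein gene Smpx 4.14 and 4.09, in corn oil and flutamide litters.

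Genes of energy supply and of calcium handling gave no common direction, 3 of 6 lying above 0 and 3 below. Ckm, muscle creatine kinase, which regenerates ATP, ran from 6.30 to 6.64 with a median of 6.52 in corn oil and from 6.13 to 6.58 with a median of 6.32 in flutamide litters. In 3 flutamide litters it was below all corn oil litters and in 3 corn oil litters above all flutamide litters. Its difference was -0.19 (SE 0.07; 0.876-fold), with a limma p of 0.018 and an adjusted p of 0.443. Mb, the oxygen store myoglobin, ran from 4.63 to 5.10 in corn oil and from 4.72 to 5.33 in flutamide litters. Its difference of 0.18 (SE 0.10) had a limma adjusted p of 0.603. Leaving out corn oil replicate 1 together with flutamide replicate 7 gave 0.09. Pvalb, the calcium buffer parvalbumin of fast fibres, had 5.57 ± 0.20 and 5.48 ± 0.11 (SD, n = 7 each), and its difference of -0.09 (SE 0.08) had a limma adjusted p of 0.771. It was -0.04 when corn oil replicate 1 was left out. Atp2a1 had means of 5.35 and 5.40, Ryr1 of 5.56 and 5.58, and Trdn of 4.40 and 4.28 in corn oil and flutamide litters.

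The myogenic factors, which switch on the muscle programme, also overlapped. Myod1 ran from 4.92 to 5.60 in corn oil and from 5.09 to 5.75 in flutamide litters, and its difference of 0.13 (SE 0.11) had a limma adjusted p of 0.757. It was 0.07 without corn oil replicate 4, the lowest litter, and 0.06 with the SD of each array in the model. Myog, myogenin, which drives differentiation, ran from 5.04 to 5.52 and from 5.13 to 5.41, and its difference of -0.05 (SE 0.07) had a limma adjusted p of 0.888. It was -0.09 without corn oil replicate 1 and -0.02 without corn oil replicate 6 or flutamide replicate 4.

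Set side by side, no fibre class had a gene past the adjusted threshold, and differences between classes were not tested. Both embryonic genes, Myh3 and Tnnt2, lay below 0, with a median of -0.224. Of the 5 slow genes 4 lay below 0, with a median of -0.057, and of the 11 fast genes measured 6 lay below and 5 above 0, with a median of -0.053. In the fast class the 3 troponins, Myl1, Actn3 and Pvalb lay below 0 and the 3 heavy chains, Mybpc2 and Atp2a1 above 0. The 12 shared genes had a median of -0.027, 7 of them below 0. Over all genes tested, 47.7% lay below 0 and the median was 0.005. As a mean of centred values, the embryonic pair stood at 0.11 ± 0.18 in corn oil and -0.11 ± 0.28 in flutamide litters (SD, n = 7 each), and ran from -0.53 in flutamide replicate 6 to 0.42 in corn oil replicate 4. The slow class stood at 0.04 ± 0.11 and -0.04 ± 0.07, and the fast class at 0.01 ± 0.09 and -0.01 ± 0.08 (SD, n = 7 each). Means over 2 genes and over 11 genes do not have the same noise, so the spreads of the classes are not compared. Flutamide replicate 6 was the lowest litter in each of the 4 classes, so the signs are not independent within or between classes.

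**Figure D5:**
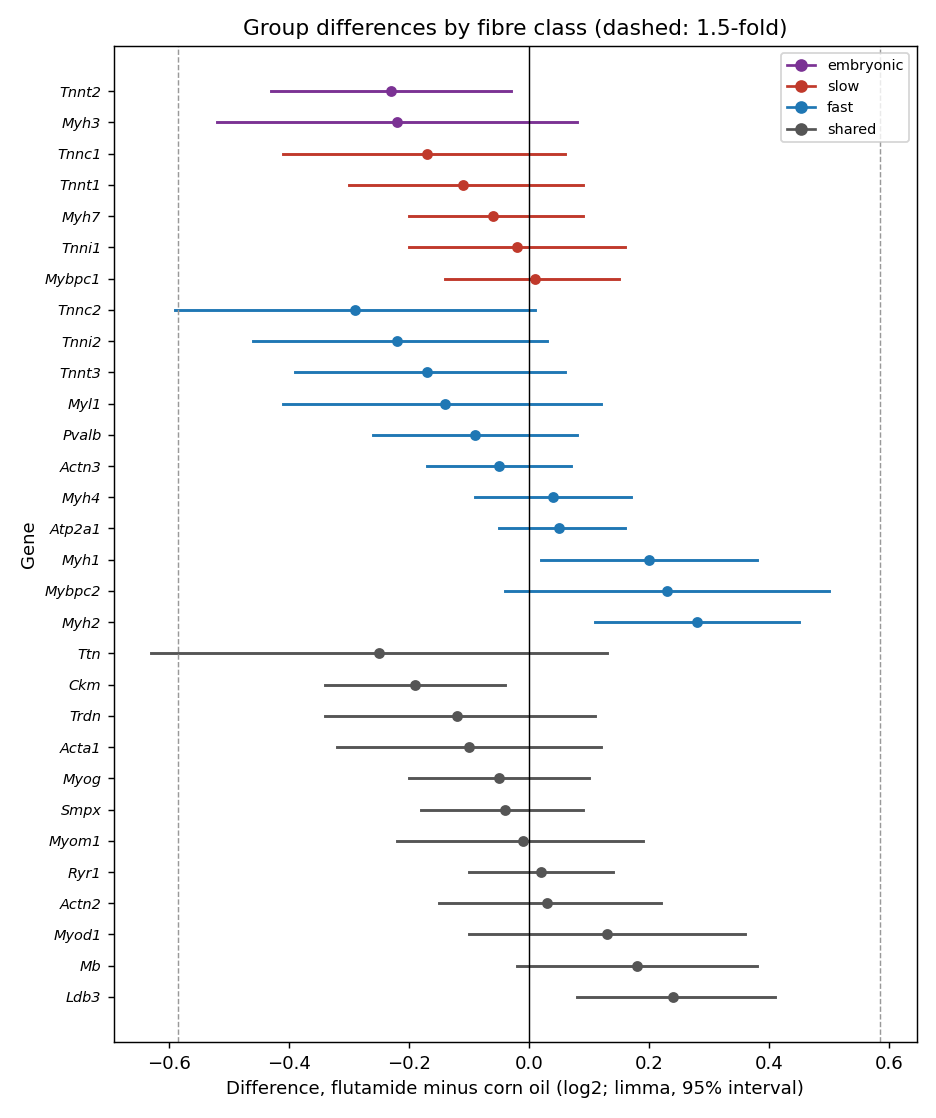
Points are limma's differences between flutamide and corn oil litters (log2) for the 30 muscle genes, with 95% intervals, coloured by fibre class; dashed lines mark 1.5-fold. The embryonic genes and the troponins lie left of 0, Myh2, Ldb3 and Myh1 have intervals wholly right of 0 and Ckm and Tnnt2 wholly left of it, and only the intervals of Tnnc2 (-0.59 to 0.01) and Ttn (-0.63 to 0.13) reach past 1.5-fold.

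Other muscle genes from a separate list of 72, of which 58 were measured, gave no call either. Of them 28 lay above and 30 below 0, with a median of -0.005, and 7 had an unadjusted limma p under 0.05, against 9.16% of all genes. The difference was -0.34 (SE 0.07) for Des, the intermediate filament desmin of all muscle types, -0.22 (SE 0.08) for Chrna1, a subunit of the acetylcholine receptor at the muscle endplate, and -0.19 (SE 0.06) and -0.17 (SE 0.07) for the tropomyosin genes Tpm2 and Tpm1. In Des the groups did not overlap, as in 0.124% of all genes: the corn oil litters ran from 5.72 to 6.04 and the flutamide litters from 5.26 to 5.68. Hrc, a calcium-binding protein of the sarcoplasmic reticulum, differed by -0.14 (SE 0.06). It was 0.24 (SE 0.11) for Trim63, a ubiquitin ligase of muscle atrophy, and 0.22 (SE 0.08) for Tmem38a, a potassium channel of the reticulum. Their limma adjusted p-values ran from 0.302 for Des to 0.518 for Trim63. Des, Tpm1 and Tpm2 are also smooth muscle genes.

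Markers of the tissue and of other muscle types were checked beside these values. The epidermal keratin genes Krt10, Krt1 and Krt14 had means over the litters of 12.34, 11.94 and 9.85, and the dermal matrix genes Dcn, Lum and Col1a2 of 11.11, 9.70 and 9.29. Neither list held a gene at an unadjusted limma p under 0.05. Of the 8 smooth muscle genes 7 lay below 0, against 47.7% of all genes, with a median of -0.110. At an unadjusted limma p under 0.05 there were 2 of the 8, against 9.16% of all genes. The mean of this list ran from 6.97 to 7.22 in corn oil and from 6.85 to 7.13 in flutamide litters. Its brightest genes, Acta2, Actg2 and Tagln, differed by -0.09, -0.39 and -0.13. Tnnt2, Tnnc1 and Myh7 are also heart genes. The list of heart markers without them had a mean from 5.31 to 5.40 in corn oil and from 5.09 to 5.36 in flutamide litters. This list had 5 of 6 genes below 0, against 47.7% of all genes, and none at an unadjusted limma p under 0.05. Its brightest genes, Myl7, Mybpc3 and Nppb, had means over the litters of 6.40, 5.52 and 5.39. How far smooth muscle content moved with the muscle genes shared by both tissues was not tested.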

How the data were processed

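Foreskin RNA from 14 litters was measured on Affymetrix Gene 1.0 ST arrays. The authors deposited log2 values for 28826 probe sets, made with RMA per the submitters' processing notes, its version not given in the sources used here. RMA equalises the arrays and shrinks differences of dim probe sets. That these are logarithms rests on their range; array medians lay between 5.63 and 5.70.

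Probe sets with 1 gene symbol (15209) were kept, symbols were updated through RefSeq (14471 of 14497 genes matched), and the brightest probe set of a gene was used; each of the 30 muscle genes had 1. The comparison of groups used limma (version 3.58.1, R 4.3.3) with lmFit and eBayes; tests were two-sided, and p-values were adjusted by Benjamini-Hochberg across the 14497 genes, with a threshold of 0.05. The number of arrays limits the precision; the median SE was 0.07. The fit was run on simulated data with noise drawn independently for each gene. Such data lack the litter pattern that genes share here, so the check does not cover it. The permutation tests drew 100000 resamples, shuffling the group-centred values freely over all 14 litters. Centring within each group leaves fewer free values than litters, so these permutation p-values can be somewhat too small.

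Levels are given for all members; differences with tests for the 3 smallest p-values in each role and for every myosin heavy chain; other muscle genes only at an unadjusted p under 0.05. Fibre classes follow textbook use. Members and lists were chosen with earlier results of these data known. Alternatives were other scalings, filters, eBayes settings, array weights, covariates and left-out litters.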

Additional observations from a re-analysis of the deposited data

Results flagged for a closer look

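A sample far from the others of its group was found in 2 of 60 gene and group combinations tested, where chance gives about 1 in 20, or 3.0. Actn3 was 5.46 in corn oil replicate 4, while the other corn oil litters lay between 5.14 and 5.25. Atp2a1 was 5.21 in corn oil replicate 1, while the others lay between 5.34 and 5.42.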

How the results depend on the processing

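No muscle gene passed the adjusted threshold under any alternative run, and no difference given above with an SE changed sign. Of the 30 muscle genes, 19 lay below 0 in the main comparison and 18 to 21 when 1 litter at a time was dropped. Some of the other muscle genes therefore did change sign. Over all genes the count past the threshold, 1 in the main comparison, was 0 with arrays centred on their median, 0 when array SD entered the model, 0 when corn oil replicate 1 and also flutamide replicate 7 were left out, 2 with genes of a mean of at least 6 and 2 with an intensity trend and robust variance; dropping 1 litter at a time gave 0 to 1. Among the muscle genes the count at an unadjusted p under 0.05, 5, was 2 with genes of a mean of at least 6, because only 5 members stay in (8.42% of all genes kept), and 3 to 10 when 1 litter at a time was dropped. The filter at a mean of 6 left only Tnnt3 of the fast genes, Acta1 and Ckm of the shared genes and Mybpc1 of the slow genes. With it the centred mean difference went from -0.01 to -0.17 for fast and from -0.01 to -0.14 for shared genes. For slow genes it went from -0.07 to 0.01 and for all members from -0.04 to -0.13. These filtered values describe the few genes left in, not a shift of a whole class. With the replicate number as a block, 0 genes passed over all genes and 7 muscle genes had an unadjusted p under 0.05, beside 9.97% of all genes. The deviations of same-numbered litters had correlations from -0.072 to 0.147. Among corn oil litters, only replicate 3 correlated best with the flutamide litter of its own number. These values show little sign of pairing by number but cannot exclude it. Leaving out corn oil replicate 4 and flutamide replicate 5, an alternative chosen after seeing the data, gave 7 muscle genes at an unadjusted p under 0.05, beside 7.26% of all genes. The limma adjusted p over all alternatives ran from 0.252 to 0.642 for Myh2 and from 0.291 to 0.673 for Ldb3. Signal over background was not measured here, so what it limits among the dim genes is not known.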

Other observations

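Actc1, the alpha-actin of heart and of immature skeletal muscle, was singled out after its values were seen. Its mean was 6.68 in corn oil and 6.49 in flutamide litters, with a litter SD of 0.40 at the 99.4th percentile of all genes, and its highest litter was flutamide replicate 5, as for Myh3 and Acta1. Markers of muscle precursors and of the endplate, also picked after their values were seen, were Myf5 with means of 4.99 and 5.05, the satellite cell cadherin Cdh15 with 5.02 and 5.07, and Chrng, the fetal subunit of the acetylcholine receptor, with 4.67 and 4.66.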
